A study of Mus musculus with 208 samples.

Results

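The genes described here are 8 members of the hypothalamic-pituitary-adrenal (HPA) stress system, chosen by symbol from the 46403 genes listed in each region's count table: the peptides corticotropin-releasing hormone (Crh) and urocortin (Ucn), the CRH binding protein (Crhbp), the CRH receptors Crhr1 and Crhr2, the glucocorticoid receptor (Nr3c1), the mineralocorticoid receptor (Nr3c2) and 11β-hydroxysteroid dehydrogenase type 1 (Hsd11b1). All 8 were listed in all 4 regions. Past the filter on low counts, which kept genes with more than 10 reads over a region's libraries, 8 of them remained in the hypothalamus, 7 in both the hippocampus and the prefrontal cortex (PFC), and 6 in the striatum. Hsd11b1 was lost in the 3 regions other than the hypothalamus and Ucn was also lost in the striatum.

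RNA-seq was performed on 208 libraries from 71 wild-type C57BL/6NTac adult mice of both sexes, each made from about 5000 NeuN+ nuclei of a single region of a single animal by a modified Smart-seq3 protocol. Dams carried a minipump that delivered morphine at 10 mg/kg/day or saline, and the cross-fostered pups then received morphine or saline in 2 subcutaneous injections a day, of 10 mg/kg each, from PND1 to PND14 (MOR or SAL). As adults they received LPS at 2 mg/kg or saline, and tissue was taken 2 h later, giving groups named SAL-SAL, SAL-LPS, MOR-SAL and MOR-LPS by exposure and then challenge. In that order they held 11, 12, 14 and 14 hypothalamic libraries, 13, 14, 12 and 16 from hippocampus, 10, 10, 12 and 16 from PFC, and 13, 15, 8 and 18 from striatum. The sample names carry a litter number and an animal number, so that 10-3 is animal 3 of litter 10. The sample names give 18 litters, fewer than the study's methods count group by group. These each held a single exposure (10 MOR and 8 SAL), so that litter could not be a block in comparisons of exposure, and 17 of them held a single sex. No batch was named in the labels. The study's methods give 8 to 12 weeks as the age of the mice in its LPS experiment. Because only NeuN+ nuclei were sorted, the values describe neuron-enriched nuclear RNA, in which RNA from other cells was still seen.

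CRH is the hypothalamic peptide that starts the endocrine stress response, and urocortin is a related peptide best known from the Edinger-Westphal nucleus of the midbrain. Both peptides bind CRHR1, urocortin also binds CRHR2 with high affinity, and CRHBP holds the peptides away from the receptors. The adrenal steroid that follows acts through the mineralocorticoid receptor, which binds corticosterone with high affinity and is known for its high level in the hippocampus, and through the lower-affinity glucocorticoid receptor, while HSD11B1 regenerates active corticosterone inside cells.

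The 3 upstream sequences below, of Ucn, Crhr1 and Crhr2, are shown because they overlapped no annotated exon. Each is the run of 250 bases that ends at the base before the RefSeq start of the gene, on the gene's strand, from the GRCm38.p6 promoter table, in which 6 of the 8 genes had an entry. The other 3 entries, those of Crhbp, Nr3c2 and Hsd11b1, overlapped annotated exons and are not shown. Capitals mark matches to the motifs searched on both strands, which do not overlap here. The cyclic AMP response element was searched as TGACGTCA. The steroid receptor hexamer was searched as AGAACA, which reads TGTTCT on the opposite strand. The TATA box was searched as TATAAA.
Ucn: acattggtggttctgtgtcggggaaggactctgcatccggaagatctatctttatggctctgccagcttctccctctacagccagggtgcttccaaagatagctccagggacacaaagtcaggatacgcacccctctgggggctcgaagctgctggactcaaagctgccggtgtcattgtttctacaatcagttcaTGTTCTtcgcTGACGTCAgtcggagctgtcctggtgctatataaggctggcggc
Crhr1: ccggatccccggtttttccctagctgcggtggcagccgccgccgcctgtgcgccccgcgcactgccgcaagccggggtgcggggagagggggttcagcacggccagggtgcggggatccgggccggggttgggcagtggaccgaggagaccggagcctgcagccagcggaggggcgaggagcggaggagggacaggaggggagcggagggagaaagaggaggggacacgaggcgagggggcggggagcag
Crhr2: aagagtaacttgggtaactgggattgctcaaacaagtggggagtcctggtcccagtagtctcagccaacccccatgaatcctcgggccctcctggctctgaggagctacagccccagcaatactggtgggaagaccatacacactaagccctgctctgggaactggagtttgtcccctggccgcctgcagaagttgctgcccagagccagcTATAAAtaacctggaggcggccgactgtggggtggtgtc
The Ucn sequence lies at chr5:31138896-31139145 on the minus strand. It held TGACGTCA from 44 to 37 bases before the start and TGTTCT from 54 to 49 bases before it. Of 32851 promoters in the table, 1.55% held TGACGTCA and 16.1% held AGAACA in the same window. The Crhr1 sequence at chr11:104132531-104132780 on the plus strand held none of the 3 motifs, and its GC content of 74.8% compares with a median of 52.4% over all promoters. The Crhr2 sequence at chr6:55133017-55133266 on the minus strand held TATAAA from 39 to 34 bases before the start, a motif present in 12.4% of promoters, and its GC content was 57.6%. These matches are descriptions of letters, and binding was not measured.

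Nr3c2 had the highest median of the 8 genes per kilobase in all 4 regions, Nr3c1 came next in the hippocampus, PFC and striatum and Crhr1 in the hypothalamus, and the peptides Crh and Ucn were close to the counting limit. Values here are CPM as deposited (a gene's reads scaled to a common library total), and levels of different genes are compared only as CPM per kilobase of exon. The median of Nr3c2 was 96.3 CPM per kb in the hippocampus, 45.9 in the striatum, 32.8 in the PFC and 10.9 in the hypothalamus. The median of Nr3c1 was 12.7 CPM per kb in the striatum, 12.3 in the hippocampus, 9.86 in PFC and 6.83 in the hypothalamus. The median of Crhr1 lay between 8.90 CPM per kb in the striatum and 11.5 in the hippocampus, with 9.33 in the hypothalamus, whereas the median of Crhr2 lay between 0.582 in the PFC and 0.758 in the hypothalamus. Crhr1 was thus the more abundant CRH receptor RNA in every region. The medians of Crhbp ranged from 0.355 CPM per kb in the striatum to 2.84 in the hypothalamus, and those of Crh from 0.308 in the striatum to 1.17 in the hypothalamus. The median of Ucn was 0 in all 4 regions.

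**Figure D1:**
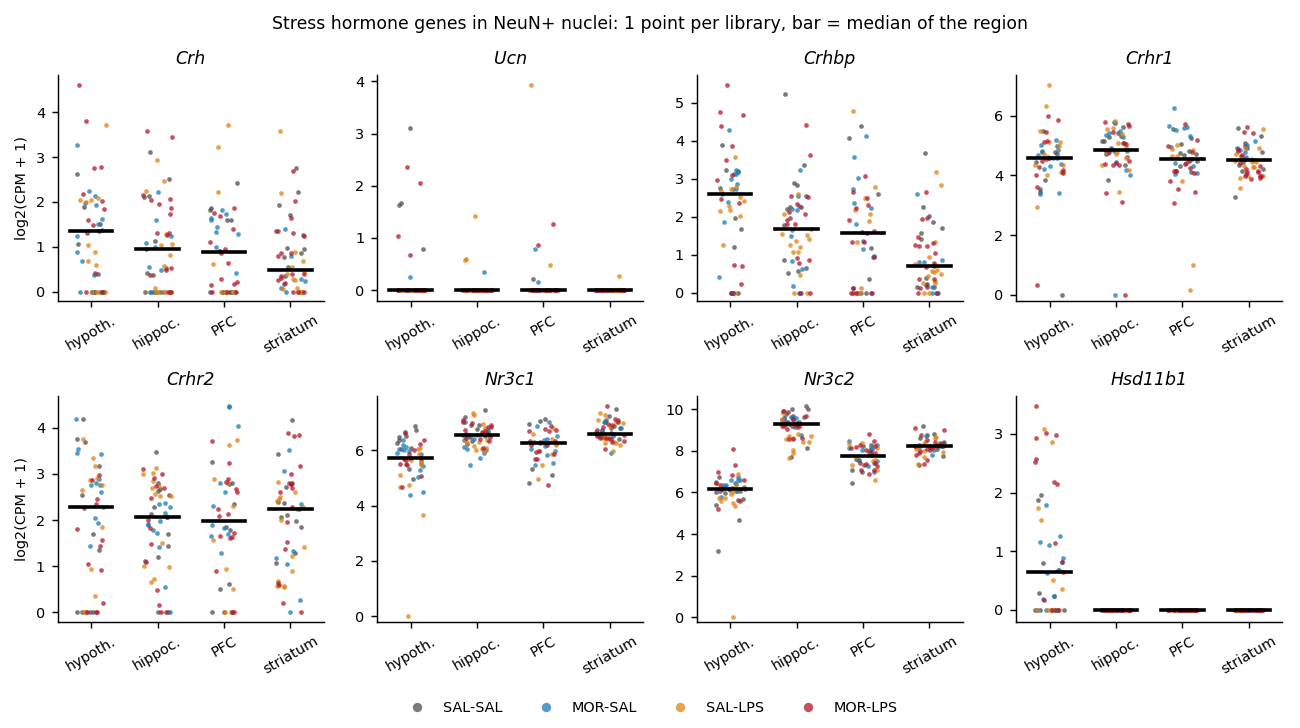
Each panel plots 1 of the 8 genes, with the region on the horizontal axis and log2(CPM + 1) on the vertical axis. Each point is a library coloured by condition and the bar is the median of the region. Nr3c2 stands highest in the hippocampus (median 624 CPM) and lowest in the hypothalamus (70.7 CPM), and Hsd11b1 has points above 0 only in the hypothalamus, although its 0 in the other tables may not mean absence.

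To compare regions, the levels of each gene were compared within animals that had a library of both regions (35 to 42 animals a pair), as the difference of log2(CPM + 1) with CPM taken over the 22240 genes counted in all 4 tables, by a two-sided sign-flip permutation test with 100000 resamples and Benjamini-Hochberg adjustment over 48 tests. The regions were deposited as separate tables. In the hypothalamus 12485 genes had a median of 5 CPM or more, and 1480 of these (11.9%) had no read in any library outside it, whereas no gene showed the same for another region, and why was not given in the sources used here. Without Hsd11b1, 18 of 42 region pairs differed. The share of all genes that would differ by this test was not computed, so the count marks nothing particular to these genes.

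Nr3c2 differed in all 6 region pairs, each with an adjusted p of 4.36e-05, which rests on the smallest p the resamples can give, 1e-05. In the 38 animals with both regions it was higher in the hippocampus than in the hypothalamus in 38 of 38, by 3.17 ± 1.06 (SD) on the log2 scale. It was higher in the striatum than in the hypothalamus by 2.28 ± 1.41 (37 of 37 animals) and in the PFC than in the hypothalamus by 1.80 ± 1.37 (34 of 35 animals). The hippocampus also stood above the PFC in 34 of 36 animals and above the striatum in 37 of 42 animals. The order of the levels was therefore hippocampus, striatum, PFC and hypothalamus, and every neighbouring pair differed. As a description, Nr3c2 in the PFC followed the summed thalamus markers (Prkcd, Tcf7l2, Lef1 and Rora). There r was 0.636 and rho 0.611 over 45 libraries, on log2(CPM + 1). In the striatum r was 0.385 and rho 0.298, and r was -0.029 in the hippocampus and -0.042 in the hypothalamus. The median thalamus sum was 3518 CPM in the striatum and 1902 in the PFC, and its part in this order was not tested. In bulk libraries a larger share of cells that make a transcript and more RNA in each of those cells cannot be told apart, here and in every comparison that follows.

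Nr3c1 was spread more evenly. Its median was 97.4 CPM in the striatum, 94.3 in the hippocampus, 75.8 in PFC and 52.5 in the hypothalamus, and 5 of its 6 pairs differed. It was higher in the hippocampus than in the hypothalamus by 0.97 ± 1.33 (SD) on the log2 scale (30 of 38 animals, adjusted p = 4.36e-05 by permutation). The hippocampus and the striatum did not pass the test, with a difference of 0.17 ± 0.59 (SD) in 42 animals (adjusted permutation p = 0.159).

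The ratio of Nr3c2 to Nr3c1 per kilobase, formed after the levels of both were seen and given with no test, had a median of 7.89 in the hippocampus (range 1.45 to 18.2) and exceeded 1 in 53 of 53 libraries once those of low depth were left out. Its median was 3.58 in the PFC, 3.56 in the striatum and 1.67 in the hypothalamus, where 37 of 48 libraries exceeded 1. Within the hypothalamus the median was 0.936 in SAL-SAL (4 of 9 libraries above 1), 1.72 in MOR-SAL, 1.47 in SAL-LPS and 1.92 in MOR-LPS. The hippocampal medians were 8.29, 11.8, 6.07 and 7.68 in the same order, and their ranges overlapped.

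Among the genes of the CRH system, Crhbp was highest in the hypothalamus, with a median of 5.12 CPM against 2.18 in the hippocampus, 1.99 in the PFC, and for the striatum 0.639. Of its 6 pairs, 5 differed. The hypothalamus exceeded the striatum by 1.34 ± 1.93 (SD) on the log2 scale in 37 animals (adjusted permutation p = 0.00113), and the hippocampus and the PFC did not pass (adjusted p = 0.517 by permutation). Crh had a median of 1.55 CPM in the hypothalamus, 0.939 in the hippocampus, 0.842 in the PFC, and for the striatum 0.407. Only its hypothalamus and striatum pair passed, by 0.63 ± 1.42 (SD) in 37 animals (adjusted permutation p = 0.0252), and 13 of 51 hypothalamic libraries held no Crh read. A library without a read allows up to 3 reads, which was 0.541 CPM at the median depth of the hypothalamus. In the striatum Crh and Crhbp were both low where the summed thalamus markers (Prkcd, Tcf7l2, Lef1 and Rora) were high, with r = -0.727 for each over 54 libraries and rho = -0.654 and -0.610, on log2(CPM + 1). These are descriptions out of 175 such combinations of gene, region and marker list, over libraries that share depth and dissection.

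Neither CRH receptor differed between regions in any of 6 pairs. The median of Crhr1 was 28.3 CPM in the hippocampus, 22.9 in the hypothalamus, 22.6 in the PFC and 21.9 in the striatum, and the largest difference between regions was 0.38 ± 1.49 (SD) on the log2 scale, between hippocampus and PFC in 36 animals (adjusted permutation p = 0.242). The median of Crhr2 ranged from 2.98 CPM in the PFC to 3.87 in the hypothalamus. Within the hypothalamus Crhr2 followed the summed hypothalamic markers (Hcrt, Pmch, Agrp, Avp, Oxt and Trh), with r = 0.653 and rho = 0.631 over 48 libraries, given as a description.

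Ucn reads were rare everywhere. A read was present in 9 of 51 libraries of the hypothalamus, 4 of 55 of the hippocampus, 7 of 48 of the PFC and 1 of 54 of the striatum. The difference between hypothalamus and striatum passed the test (0.30 ± 0.73 SD on the log2 scale, 37 animals, adjusted permutation p = 0.0291), and it rests on 8 animals with more in the hypothalamus, against 1 with more in the striatum. Hsd11b1 had reads in 34 of 51 hypothalamic libraries, with a median of 0.567 CPM, and was listed at 0 in each of the 157 libraries of the other regions, so no fold is given for it. Because many genes shared that pattern between tables, a 0 there may not mean that the RNA was absent.

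For the 4 genes whose median reached 5 CPM in their highest region, those genes were sought there whose log2(CPM + 1) followed them most closely, among all with a median of 1 CPM or more. Nr3c2 in the hippocampus (53 libraries) was followed by Plxna4 (r = 0.900), Shisa6 (r = 0.882) and Dpf3 (r = 0.863), and these values changed little within conditions (0.888, 0.855 and 0.838). The highest for Crhr1 in the hippocampus were Mapk11 (r = 0.748), Lingo1 (r = 0.731) and Slc6a7 (r = 0.721). For Nr3c1 in the striatum (54 libraries) they were Nbeal1 (r = 0.753), Snx31 (r = 0.708) and Wls (r = 0.699), and for Crhbp in the hypothalamus (48 libraries) Dad1 (r = 0.738), Ntn1 (r = 0.705) and Nrp1 (r = 0.702). The r values were highest for Nr3c2, but the 4 genes differed in read depth and in the region searched, so these values do not rank them. The libraries share depth and dissection, and nothing on shared function follows from these values.

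Comparisons between conditions ask how perinatal morphine changes the adult state (MOR-SAL vs SAL-SAL), the state under challenge (MOR-LPS vs SAL-LPS), the response to LPS after saline (SAL-LPS vs SAL-SAL) and after morphine (MOR-LPS vs MOR-SAL), and whether these responses differ (interaction). Each region was fitted with edgeR's quasi-likelihood test on all its genes with sex as a covariate, and adjusted p-values cover all genes tested. Of the 8 genes RNA-seq identified only Ucn as differentially expressed, in 4 hypothalamic contrasts and 1 hippocampal contrast. In the hypothalamus 1 of 8 was called for MOR-SAL vs SAL-SAL, 1 of 8 for SAL-LPS vs SAL-SAL, 1 of 8 for MOR-LPS vs MOR-SAL and 1 of 8 for the interaction, against 1.44%, 0.246%, 6.27% and 3.8% of all genes. For MOR-LPS vs SAL-LPS 0 of 8 were called, with 1 at an unadjusted p under 0.05, against 1.03% of all genes. In the hippocampus 1 of 7 was called for the interaction, against 2.35% of all genes. The other 4 hippocampal contrasts called 0 of 7, with 1, 1, 3 and 1 at an unadjusted p under 0.05, against 0% of all genes for MOR-SAL vs SAL-SAL, 2.73% for MOR-LPS vs SAL-LPS, 2.55% for SAL-LPS vs SAL-SAL and 0.467% for MOR-LPS vs MOR-SAL. In the PFC all 5 contrasts called 0 of 7, each with 1 at an unadjusted p under 0.05, against 0%, 0.0046%, 0%, 0.0184% and 1.78% of all genes in the order given above. In the striatum all 5 called 0 of 6, with 1, 0, 0, 1 and 1 at an unadjusted p under 0.05, against 0%, 0%, 0.0128%, 1.39% and 0.00854% of all genes. With a single gene called, the members' share carries no information about the group.

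**Figure D2:**
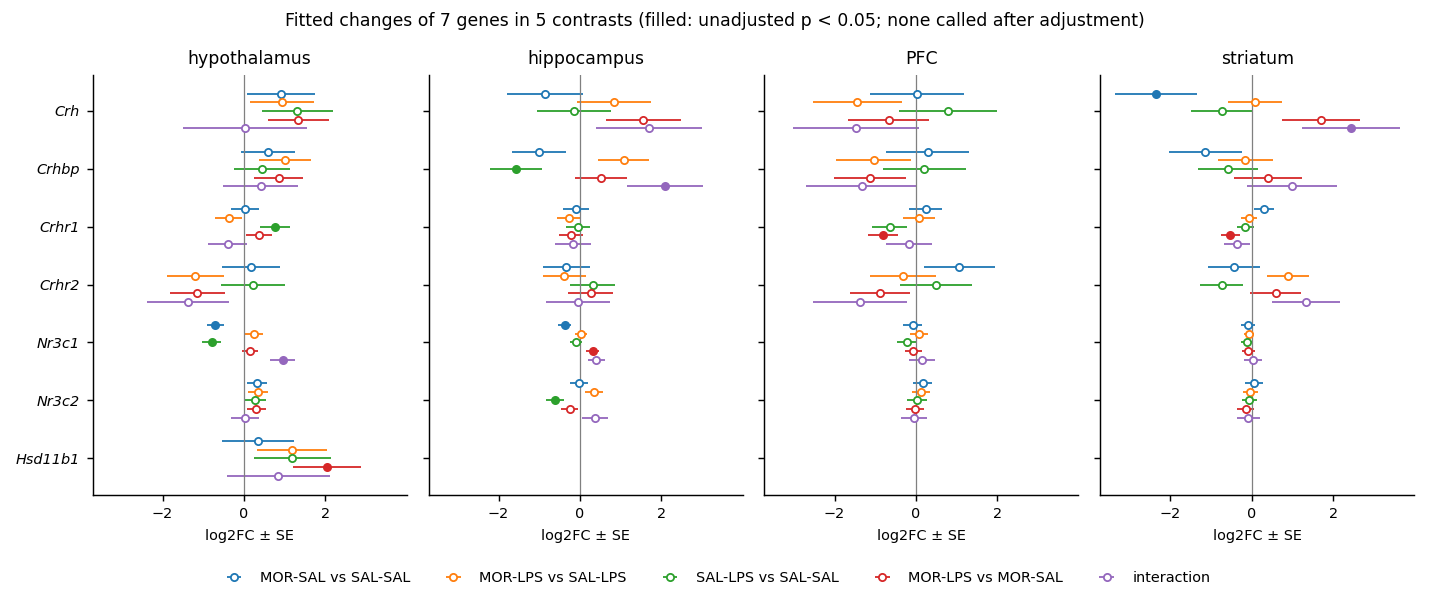
Each panel is a region, with the genes other than Ucn on the vertical axis and the fitted log2 fold change (log2FC) ± SE on the horizontal axis. Colours stand for the 5 contrasts and filled points have an unadjusted p under 0.05. No point passed the adjusted threshold, and the widest bars belong to Crh, Crhbp and Hsd11b1, whose counts were low.

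Ucn, the urocortin peptide, was called on few reads. Its hypothalamic reads numbered 77 in 4 of 11 SAL-SAL libraries (44 in 10-3, 19 in 5-3, 10 in 3-2 and 4 in 11-1), 1 in 1 of 14 MOR-SAL libraries, 0 in 12 SAL-LPS libraries and 62 in 4 of 14 MOR-LPS libraries (29 in 13-2, 23 in 14-0, 7 in 8-3 and 3 in 16-0). Most libraries of every group thus held no read, and the groups overlapped at 0. Pooled over libraries, SAL-SAL exceeded MOR-SAL by a ratio of 118 (95% interval 20.6 to 4728, exact, counting error only), and MOR-LPS exceeded MOR-SAL by a ratio of 59.4 (10.3 to 2385). Without the library with most reads, 10-3 and 13-2, the ratios were 57.0 (9.54 to 2319) and 35.6 (5.96 to 1449), an alternative chosen after the data were seen. For SAL-LPS, which held 0 reads, the level was set at 3 reads over the group. Against that limit the observed SAL-SAL level was 47.0-fold higher and the MOR-LPS level 23.6-fold higher. Leaving out 10-3 and 13-2 gave 22.7-fold and 14.2-fold. These values leave out the counting error of the higher group and are not lower bounds. The edgeR log2FC was -5.65 (SE 1.22, adjusted p = 0.0102) for MOR-SAL vs SAL-SAL, -6.13 (SE 1.32, adjusted p = 0.0322) for SAL-LPS vs SAL-SAL and 3.99 (SE 1.13, adjusted p = 0.0250) for MOR-LPS vs MOR-SAL. For the interaction it was 10.12 (SE 1.73, adjusted edgeR p = 0.00154), and for MOR-LPS vs SAL-LPS it was 4.48 (SE 1.24, adjusted edgeR p = 0.0544), which did not pass. With groups at or near 0 these fitted values depend on the prior count and bound nothing. A two-sided permutation of libraries on log2(CPM + 1), added after the values were seen, gave p = 0.0257, 0.0374, 0.0979 and 0.1 for the contrasts in the order just given, with MOR-LPS vs SAL-LPS last, and adjusted p between 0.224 and 0.24 over 12 comparisons, so that none passed.

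The hypothalamic Ucn calls also depended on single litters. Without litter 10, which includes the library with 44 reads, the log2FC for MOR-SAL vs SAL-SAL was -3.37 (adjusted edgeR p = 0.146). The call for SAL-LPS vs SAL-SAL was lost without litter 3, 10, 14 or 15, and that for MOR-LPS vs MOR-SAL without litter 6, 13 or 16. The interaction passed in all 17 fits that left out a litter. Leaving out the single library 10-3 moved MOR-SAL vs SAL-SAL to -3.26 (adjusted edgeR p = 0.107) and SAL-LPS vs SAL-SAL to -3.41 (adjusted edgeR p = 0.121), the latter passing in 40 of 51 fits that left out a library, while MOR-LPS vs MOR-SAL and the interaction passed in 51 of 51. With limma-voom and a correlation within litters MOR-SAL vs SAL-SAL did not pass (adjusted p = 0.183). With the litter as a block the log2FC of the interaction was 7.64 (adjusted edgeR p = 0.055), and the 2 blocked LPS responses did not pass either (adjusted edgeR p = 0.397 in SAL and 0.231 in MOR). The 4 SAL-SAL libraries with Ucn reads had summed thalamus markers of 708, 977, 1477 and 1647 CPM in 11-1, 3-2, 5-3 and 10-3, whereas all other SAL-SAL libraries lay at 376 or below, except 10-1 with 2331 and no Ucn read. Summed hypothalamic markers in the same 4 libraries were 109, 106, 12.2 and 0.347 CPM, beside a group median of 32.3. The value of 10-3 was the lowest of the group. The 4 MOR-LPS libraries with reads had thalamus sums from 161 to 452 CPM, inside the range of their group. Their hypothalamic sums ran from 11.2 to 15.6 CPM, beside a group median of 13.9. The part of neighbouring tissue in these reads was not tested. The median thalamus sum of the other regions lay between 1240 CPM in the hippocampus and 3518 in the striatum.

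In the hippocampus Ucn had 24 reads in 3 of 14 SAL-LPS libraries (15 in 9-3, 5 in 10-4 and 4 in 3-1), 2 reads in 1 of 12 MOR-SAL libraries and none in 13 SAL-SAL and 16 MOR-LPS libraries. With the groups without reads set at 3 reads, the observed SAL-LPS level was 8.35-fold that of MOR-LPS and 7.79-fold that of SAL-SAL. Leaving out 9-3 gave 3.32-fold and 3.10-fold. The counting error of SAL-LPS is left out of these values too. The interaction was called (log2FC -5.53, SE 1.27, adjusted edgeR p = 0.0156), opposite in sign to the hypothalamus, and MOR-LPS vs SAL-LPS just missed (adjusted edgeR p = 0.0503). The interaction call rested on the 2 reads of 17-2, the MOR-SAL library. Without 9-3 alone its log2FC was -4.45 and it still passed (adjusted edgeR p = 0.0360). Without 17-2 its log2FC was -3.12 (adjusted edgeR p = 1), without litter 17 it was -3.04 (adjusted edgeR p = 1), without litter 9 it was -4.42 (adjusted edgeR p = 0.0579) and with the litter as a block it was -4.28 (adjusted edgeR p = 0.621). The permutation gave adjusted p from 0.24 to 0.604 in this region. The part of neighbouring tissue in the hippocampal Ucn reads was not tested. In the PFC 209 of the reads came from a single SAL-LPS library, 11-0, and 31 from MOR-LPS 17-3, beside at most 7 in any other library, and the interaction did not pass (log2FC -5.95, SE 1.76, adjusted edgeR p = 0.0589). The striatum held 2 reads in all.

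**Figure D3:**
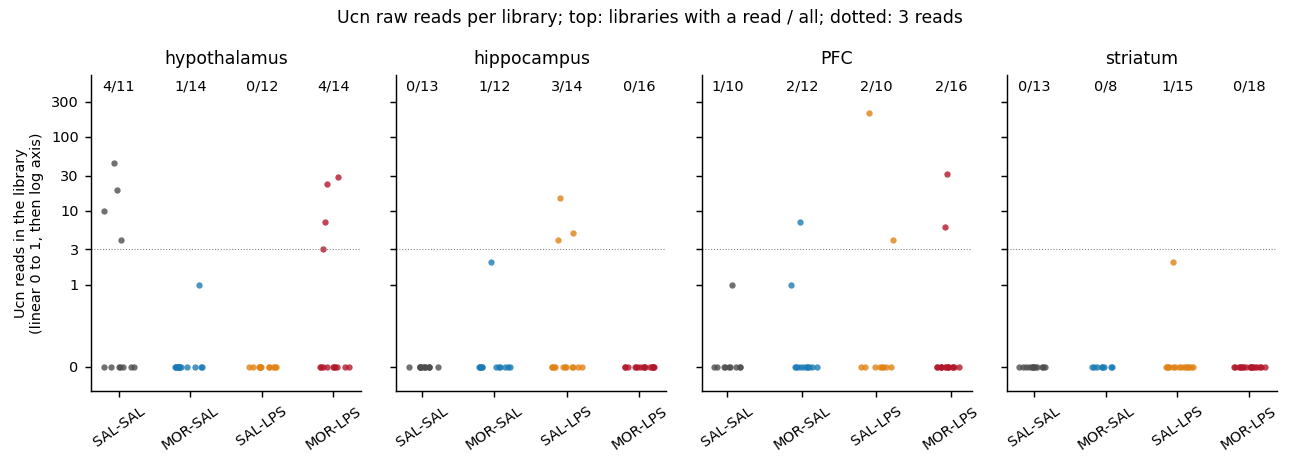
Ucn reads per library are plotted for each region and condition, on a vertical axis that is linear from 0 to 1 and logarithmic above. The numbers on top give libraries with a read out of all libraries, and the dotted line marks 3 reads. In the hypothalamus the points above 0 fall in SAL-SAL (4 of 11) and MOR-LPS (4 of 14), with 1 read in MOR-SAL.

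Nr3c1, the glucocorticoid receptor, had its highest hypothalamic values in SAL-SAL. Its TMM-normalized CPM in that group had a lowest value of 32, a median of 74.9 and a highest of 122. The corresponding values were 19.9, 51.3 and 76.6 in MOR-SAL, 0, 51.8 and 65.6 in SAL-LPS and 31.98, 49.1 and 102 in MOR-LPS, and the value of 0 belongs to a library of only 7673 reads. The groups overlapped, although 5 of 11 SAL-SAL libraries lay above every MOR-SAL library. Means were 79.8 ± 27.0 (SD, n = 11), 49.0 ± 18.1 (SD, n = 14), 43.2 ± 20.1 (SD, n = 12) and 54.9 ± 19.0 (SD, n = 14). The log2FC was -0.70 (SE 0.21, adjusted edgeR p = 0.0628) for MOR-SAL vs SAL-SAL and -0.79 (SE 0.23, adjusted edgeR p = 0.0728) for SAL-LPS vs SAL-SAL. For the interaction it was 0.95 (SE 0.30, adjusted edgeR p = 0.0563). None of these passed, and those of MOR-LPS vs SAL-LPS (0.25, SE 0.21) and MOR-LPS vs MOR-SAL (0.15, SE 0.20) were smaller.

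The Nr3c1 difference stood near the threshold and crossed it under some settings. MOR-SAL vs SAL-SAL passed with DESeq2 (adjusted p = 0.0366), with DESeq2 size factors in edgeR (adjusted p = 0.0491), with no sex term (adjusted edgeR p = 0.0483) and without litter 1 (adjusted edgeR p = 0.0471), and it moved to -0.52 (adjusted edgeR p = 0.265) without litter 10. These were 3 of 12 settings and 1 of 17 litters left out, and with limma-voom and a correlation within litters the adjusted p was 0.189. The interaction passed in 2 of 13 settings, DESeq2 (adjusted p = 0.0466) and DESeq2 size factors in edgeR (adjusted p = 0.0343), and in 2 of 17 fits that left out a litter, those without litter 9 (adjusted edgeR p = 0.0493) or 11 (adjusted edgeR p = 0.0446). With the litter as a block its adjusted edgeR p was 0.296, and without litter 10 it was 0.254. The SAL-SAL libraries of litter 10, 10-1 and 10-3, had summed hypothalamic markers of 3.25 and 0.347 CPM, beside 2.79 in 5-1. The thalamus sum had a median of 373 CPM in SAL-SAL, 168 in MOR-SAL, 169 in SAL-LPS and 183 in MOR-LPS. Summed choroid plexus markers also had their highest median in SAL-SAL (35.7 CPM, beside 4.47 in MOR-SAL, 2.80 in SAL-LPS and 8.35 in MOR-LPS). Over the 48 hypothalamic libraries of sufficient depth Nr3c1 followed the thalamus sum with r = 0.442 and rho = 0.370, and with r = 0.340 within conditions. This was not particular to the thalamus list. Summed hippocampal markers (Prox1, Neurod6, Spink8 and Wfs1) gave r = 0.424 and rho = 0.355, and r = 0.456 within conditions. Summed hypothalamic markers gave r = 0.267 and rho = 0.236, and r = 0.395 within conditions. The part of any of these lists in the Nr3c1 values was not tested.

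**Figure D4:**
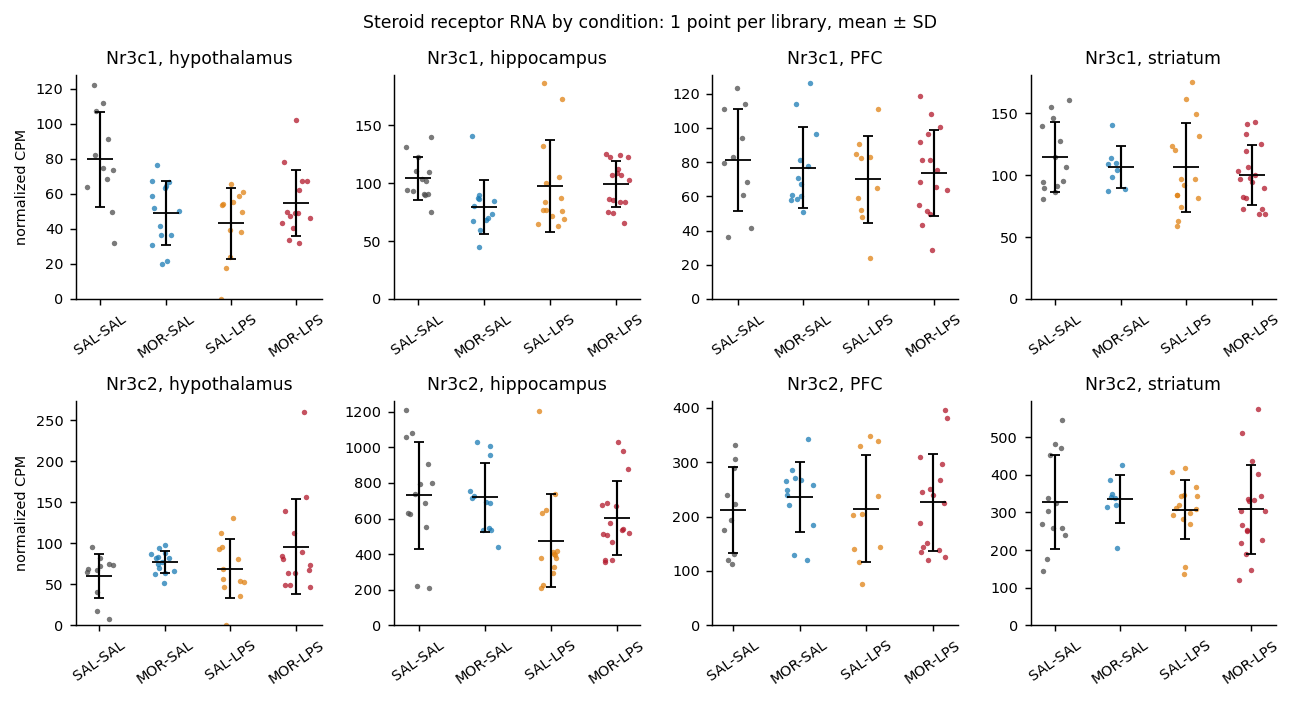
Nr3c1 (upper panels) and Nr3c2 (lower panels) are plotted as normalized CPM on the vertical axis against condition, with a panel per region, a point per library and the mean ± SD in black. Hypothalamic Nr3c1 has its highest mean in SAL-SAL (79.8) and hippocampal Nr3c2 its lowest in SAL-LPS (476), and neither difference passed the adjusted threshold.

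In the hippocampus Nr3c1 had a median of 102 normalized CPM in SAL-SAL (range 74.9 to 139), 76.9 in MOR-SAL (44.6 to 141), 80.1 in SAL-LPS (62.6 to 187) and 105 in MOR-LPS (65.3 to 125). The log2FC for MOR-SAL vs SAL-SAL was -0.38 (SE 0.16) with an unadjusted edgeR p of 0.0193 and an adjusted p of 0.316, a contrast in which 0 of 22076 genes were called and 2272 had an unadjusted p under 0.05. In the PFC and the striatum the log2FC of Nr3c1 lay between -0.21 and 0.15 over the 5 contrasts of each region.

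Nr3c2, the mineralocorticoid receptor, showed its widest difference in the hippocampus. Its normalized CPM ran from 211 through a median of 737 to 1212 in SAL-SAL, from 442 through 703 to 1029 in MOR-SAL, from 211 through 397 to 1205 in SAL-LPS and from 353 through 540 to 1030 in MOR-LPS. The groups overlapped, and 12 of 14 SAL-LPS libraries lay below the SAL-SAL median. Means were 732 ± 300.4 (SD, n = 13), 719 ± 194 (SD, n = 12), 476 ± 260.4 (SD, n = 14) and 604 ± 207 (SD, n = 16). The log2FC for SAL-LPS vs SAL-SAL was -0.62 (SE 0.22, unadjusted edgeR p = 0.00641, adjusted p = 0.0990) and did not pass. It passed when libraries were scaled by their totals only (adjusted edgeR p = 0.0313) and without litter 2 (adjusted edgeR p = 0.0218), the only 1 of 12 settings and 1 of 18 litters. The interaction was 0.37 (SE 0.31, adjusted edgeR p = 0.731). Summed hippocampal markers (Prox1, Neurod6, Spink8 and Wfs1) had a median of 248 CPM in SAL-SAL and 201 in SAL-LPS. The lowest SAL-SAL library for Nr3c2, 9-0, had a hippocampal sum of 114 CPM, and the 4 SAL-LPS libraries with lower sums still, 1-2, 10-0, 4-4 and 1-4 (59.2, 64.1, 73.7 and 91.0 CPM), had 262, 338, 585 and 197 CPM of Nr3c2 as deposited. Of the other 10 SAL-LPS libraries 9 also lay below the SAL-SAL median of 755 CPM, with a median of 412 CPM, and SAL-SAL 1-1 had 277 CPM of Nr3c2 at a hippocampal sum of 365. Over 53 libraries of sufficient depth Nr3c2 had r = 0.400 and rho = 0.257 with the hippocampal sum, and r = 0.275 within conditions, on log2(CPM + 1) and as a description. The part of these markers in the difference was not tested. In the hypothalamus, PFC and striatum no Nr3c2 contrast had an adjusted p under 0.499, and the log2FC in the hypothalamus lay between 0.03 and 0.35.

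Hsd11b1, the enzyme that regenerates corticosterone, was higher after LPS in morphine-exposed hypothalamus without passing the threshold. Its normalized CPM had a median of 0 in SAL-SAL (highest 3.40, reads in 5 of 11 libraries), 0.542 in MOR-SAL (highest 2.31, reads in 11 of 14), 0.207 in SAL-LPS (highest 8.23, reads in 6 of 12) and 3.35 in MOR-LPS (highest 11.8, reads in 12 of 14). The groups overlapped at 0. The log2FC for MOR-LPS vs MOR-SAL was 2.03 (SE 0.84, unadjusted edgeR p = 0.0182, adjusted p = 0.132). It passed in a bias-adjusted edgeR fit, added after the values were seen (adjusted p = 0.00576), and without litter 6 (adjusted edgeR p = 0.0479), the only 1 of 13 settings and 1 of 17 litters.

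The Hsd11b1 values moved with markers of astrocytes, which the NeuN+ sort should have removed. The summed CPM of Aqp4, Aldh1l1, Gja1 and Slc1a3 had a median of 18.0 in SAL-SAL, 25.1 in MOR-SAL, 26.1 in SAL-LPS and 155 in MOR-LPS. Over 48 hypothalamic libraries Hsd11b1 followed this sum with r = 0.861 and rho = 0.779, and with r = 0.823 within conditions, a description that was the closest of the 175. Summed oligodendrocyte markers moved with it too (r = 0.712, rho = 0.629), and summed microglia markers had a median of 29.1 CPM in MOR-LPS beside 17.6 in SAL-SAL, 19.7 in MOR-SAL and 16.4 in SAL-LPS. Whether the difference between the groups comes with the astrocyte RNA was not tested.

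**Figure D5:**
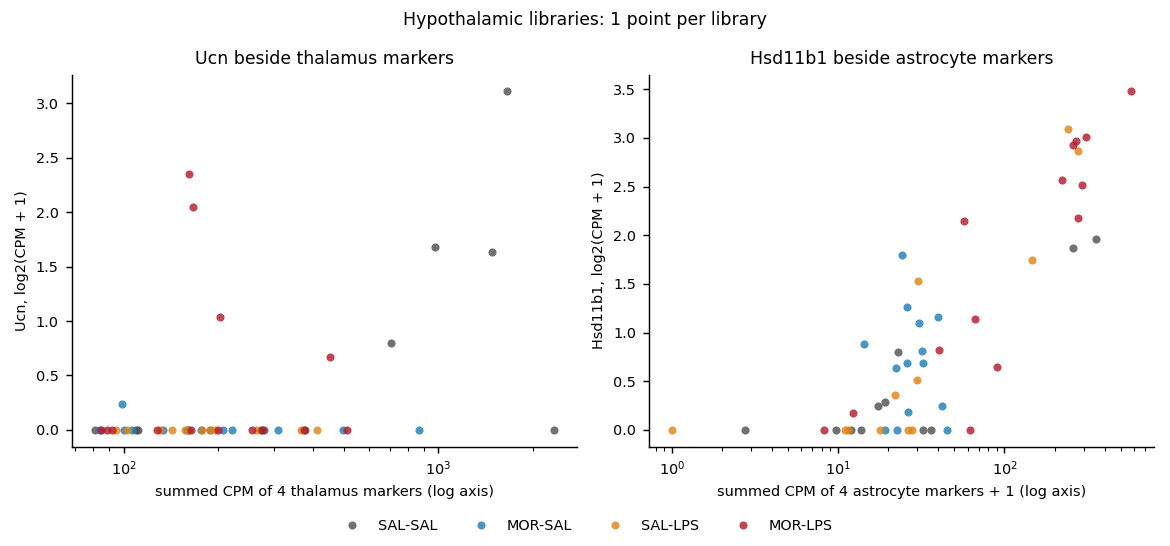
Each point is a hypothalamic library coloured by condition. The left panel plots Ucn as log2(CPM + 1) against the summed CPM of 4 thalamus markers, and the right panel plots Hsd11b1 as log2(CPM + 1) against the summed CPM of 4 astrocyte markers plus 1, both on logarithmic horizontal axes. The 4 SAL-SAL libraries with Ucn lie between 708 and 1647 CPM, and the right panel rises from left to right (Pearson r = 0.861 over the 48 libraries of sufficient depth).

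The remaining genes had no adjusted p below 0.166 outside these cases. Crh in the hypothalamus had means of 0.979 ± 1.53 (SD, n = 11) in SAL-SAL, 2.12 ± 2.40 (SD, n = 14) in MOR-SAL, 2.50 ± 3.58 (SD, n = 12) in SAL-LPS and 4.87 ± 7.20 (SD, n = 14) in MOR-LPS normalized CPM. The SD exceeded the mean in every group, and the log2FC after LPS was 1.31 (SE 0.87) in SAL and 1.33 (SE 0.75) in MOR. The highest Crh value, 27.3 CPM from 208 reads, came from MOR-LPS 16-4, which also had the highest astrocyte sum. Its hypothalamic marker sum of 226 CPM was the second highest of its group, beside a group median of 13.9, and the part of either was not tested. In the striatum Crh was read in 13 of 13 SAL-SAL and 5 of 8 MOR-SAL libraries, with medians of 0.867 and 0.128 normalized CPM. The log2FC was -2.36 (SE 1.01, unadjusted edgeR p = 0.0234, adjusted p = 0.367). The summed thalamus markers, with which striatal Crh moved inversely, had medians there of 3902 CPM after morphine (MOR-SAL) and 2642 in SAL-SAL, and their part was not tested. At this depth such low levels allow no firmer statement.

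Crhbp in the hippocampus had a median of 3.83 normalized CPM in SAL-SAL, 2.40 in MOR-SAL, 1.54 in SAL-LPS and 3.17 in MOR-LPS. The log2FC for SAL-LPS vs SAL-SAL was -1.57 (SE 0.65, unadjusted edgeR p = 0.0182, adjusted p = 0.166) and that of the interaction was 2.08 (SE 0.93, adjusted edgeR p = 0.301). Crhr1 was lower after LPS in morphine-exposed PFC and striatum at the unadjusted level only, by log2FC of -0.81 (SE 0.36, unadjusted edgeR p = 0.0283, adjusted p = 0.289) and -0.53 (SE 0.24, unadjusted edgeR p = 0.0294, adjusted p = 0.224). In the hypothalamus it had a log2FC of 0.76 (SE 0.36, adjusted edgeR p = 0.320) for SAL-LPS vs SAL-SAL, where the highest value, 120 normalized CPM, came from 1-0. Crhr2 had no unadjusted edgeR p under 0.05 in any of its 20 contrasts.

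As context, genes of connected pathways were described from lists fixed for this work. Of 12 glucocorticoid-induced genes, 9 rose and 0 fell past the threshold in MOR-LPS vs MOR-SAL hypothalamus, against 6.27% of all genes called (4.1% higher), with a median log2FC of 1.49 beside 0.0028 over all genes, while Nr3c1 itself had 0.15. The 3 with the smallest adjusted p were Klf9 (1.43, SE 0.22, adjusted edgeR p = 7.64e-05), Zbtb16 (2.04, SE 0.34, adjusted edgeR p = 0.000176) and Cdkn1a (2.69, SE 0.45, adjusted edgeR p = 0.000182). The interaction called 4 of the 12 higher, against 2.2% of all genes, among them Klf9 (1.61), Ddit4 (2.12) and Nfkbia (1.55). With the litter as a block 5 of the 9 kept the call, and 0 of the 4 in the interaction. Leaving out any of 17 litters kept the calls of Klf9, Zbtb16 and Cdkn1a in MOR-LPS vs MOR-SAL, and that of Klf9 in the interaction, whereas the other interaction calls were each lost without single litters. None of the 12 was called in the other 3 hypothalamic contrasts. In the hippocampus 1 of 12 was called for MOR-LPS vs SAL-LPS (Tsc22d3, 0.97, against 1.72% of all genes called higher) and 1 for SAL-LPS vs SAL-SAL (Cdkn1a, 1.92, against 1.33%). In the striatum 3 of 12 were called for MOR-LPS vs MOR-SAL (Cdkn1a, 2.67; Fkbp5, 0.84; Ddit4, 1.89), against 0.845% of all genes called higher, with a median of 0.96 beside 0.108 over all genes. In the same striatal groups the median sums were 41.1 CPM in MOR-LPS and 19.2 in MOR-SAL for astrocyte markers, 437 and 241 for oligodendrocyte markers, and 17.7 and 7.03 for microglia markers, and their part was not tested. In the PFC 1 of 12 was called in the interaction (Pdk4, 9.67), against 1.35% of all genes called higher, on means of 1.14 (SD 2.53), 0.0666, 0.0288 and 1.43 normalized CPM in SAL-SAL, in MOR-SAL, in SAL-LPS and in MOR-LPS. With 2 groups near 0 that fitted value depends on the prior count. The block kept 0 of the 3 striatal calls and 0 of 1 in the PFC. It kept hippocampal Cdkn1a, and Tsc22d3 could not be blocked. All of these were lost without 1 or more single litters, Tsc22d3 in 5 of 18 fits.

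Of 5 steroid metabolism enzymes, 2 were called higher in MOR-LPS vs MOR-SAL hypothalamus, against 4.1% of all genes, Cyp7b1 (1.63, SE 0.47, adjusted edgeR p = 0.0255) and Akr1c18 (3.89, SE 0.95, adjusted edgeR p = 0.0121), the latter at a mean of 0.295 normalized CPM in MOR-LPS and 0 in MOR-SAL. Of 14 other HPA peptides and receptors, 12 were tested in the hypothalamus and 14 in the PFC. Pomc was called lower in the hypothalamic interaction (-4.19, SE 1.26, adjusted edgeR p = 0.0431), on means of 1.11, 6.38, 6.44 and 3.34 normalized CPM in SAL-SAL, in MOR-SAL, in SAL-LPS and in MOR-LPS, against 1.6% of all genes called lower, and Ucn2 in the PFC interaction (-4.26, against 0.433%) at means of at most 0.0663 normalized CPM. Pomc passed in 8 of 17 fits that left out a litter. Summed hypothalamic markers (Hcrt, Pmch, Agrp, Avp, Oxt and Trh) had medians of 32.3 CPM in SAL-SAL and 40.8 in SAL-LPS, and of 64.3 in MOR-SAL and 13.9 in MOR-LPS, and their part was not tested. Of 4 other steroid receptors, 1 was called higher in SAL-LPS vs SAL-SAL hippocampus, against 1.33% of all genes called higher. It was the progesterone receptor gene Pgr (0.81, SE 0.20, adjusted edgeR p = 0.0269). No transcription factor of CRH neurons (5 genes, 4 of them tested in the hippocampus) and no steroid receptor chaperone or coregulator (9 genes) was called in any region or contrast. The calls of Cyp7b1, Akr1c18, Pomc, Ucn2 and Pgr were all lost with the litter as a block. The astrocyte sums given above rose in MOR-LPS hypothalamus beside the glucocorticoid-induced genes, and their part was not tested.

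The labels of the hypothalamus and hippocampus were checked against markers. No such check is given here for the labels of the PFC and striatum. The hypothalamic markers had a median sum of 35.8 CPM in the hypothalamus and from 6.25 to 10.2 CPM elsewhere, although some hypothalamic libraries lay near 0. The hippocampal markers had a median of 238 CPM in the hippocampus and from 85.4 to 130 CPM elsewhere, and the neuronal markers Rbfox3, Snap25 and Syt1 were read in every region. The thalamus sum had a median of 3518 CPM in the striatum, 1902 in the PFC and 1240 in the hippocampus, all above the 188 of the hypothalamus. Total counts ran from 7673 to 35077048 in the hypothalamus, 227025 to 24071488 in the hippocampus, 3056648 to 21988203 in PFC and 5954700 to 92945090 in the striatum, and 8 libraries held under 0.5 of their region's median.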

How the data were processed

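The deposited files were a table of raw read counts per gene and a table of CPM for each of 4 regions, with a column per library. According to the study's methods the authors used Trim Galore for trimming and STAR with mm10 and GENCODE vM25 for alignment and gene counting, and deposited the counts. Whether strand was used is not given in the sources used here. The deposited CPM had been computed by the authors after leaving out 37 mitochondrial genes, and were used for levels by region. From the deposited counts, TMM-normalized CPM and marker sums by group were computed, and exon lengths and positions were taken from GENCODE M21. Genes with a total above 10 counts in a region were fitted with edgeR 4.0.16 (quasi-likelihood, TMM) in R 4.3.3, with the 4 conditions and sex as terms, and were called at a Benjamini-Hochberg adjusted p under 0.05. Region levels were compared by sign-flip permutation in Python 3.11.15 with scipy 1.17.1 and numpy 2.4.6. The scripts were tested on simulated data. Alternatives used DESeq2 1.42.0 and limma 3.58.1, other normalizations and filters, each sex alone, and each litter left out. Pooled intervals cover counting error only, and the floor of 3 reads covers only that of a group or library without reads.

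The 8 genes and all lists were chosen with earlier results of these data known. The named genes were the 8 members, the 3 genes most like each member with a median of at least 5 CPM, and at most 3 called genes per list, region and contrast with the smallest adjusted p. The first part of a sample number is the litter, as the study's sample sheet states, and was used as the block for LPS responses; the consensus correlation within litters ranged from -0.049 in the hypothalamus to 0.029 in the striatum. Libraries of a group come from separate animals, but animals of 1 litter are related. The values of some marker lists are not reported here.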

Additional observations from a re-analysis of the deposited data

Results flagged for a closer look

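In 5 of 20 groups of 4 to 10 libraries the highest library stood apart from the others by Dixon's criterion. That criterion marks about 1 in 20 for normally distributed values, and CPM from low counts with many zeros are not so distributed. No excess over chance therefore follows from the count. Crhbp in PFC SAL-LPS reached 26.2 normalized CPM (324 reads) in 1-4, beside 6.15 in the next library. Crhbp in striatum MOR-SAL reached 4.75 normalized CPM (40 reads) in 17-2, beside 0.854. Crhr1 in striatum MOR-SAL reached 50.97 normalized CPM (208 reads) in 15-0, beside 33.5. Ucn in PFC SAL-LPS reached 12.4 normalized CPM (209 reads) in 11-0, beside 0.428, and in PFC SAL-SAL it reached 0.134 normalized CPM in 1-3. That value is a single read, which the limit of 3 reads does not tell from 0, and with every other library of its group at 0 any read meets the criterion, so it carries no information. The interaction of Ucn was called by edgeR, with a fitted log2FC of 10.12 in the hypothalamus and -5.53 in the hippocampus over groups at or near 0 reads. Neither call held with the litter as a block (adjusted edgeR p = 0.055 and 0.621), and the hippocampal one was lost without 17-2, a library with 2 reads (adjusted edgeR p = 1).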

How the results depend on the processing

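The counts of genes called, out of 8 in the hypothalamus and 7 in the hippocampus, depended on the processing because they rested on Ucn. In the hypothalamus MOR-SAL vs SAL-SAL called 1 gene as reported, 0 with filterByExpr (which removes Ucn), in females only, in males only, with limma-voom and a correlation within litters, and with limma on log2(CPM + 0.1) or log2(CPM + 1), and 2 with DESeq2 size factors or no sex term, the second being Nr3c1. SAL-LPS vs SAL-SAL went from 1 to 0 under the same first 6 settings, with no sex term, with the bias-adjusted edgeR fit (chosen after seeing the data) and with the litter as a block (Ucn log2FC -4.60). MOR-LPS vs MOR-SAL went from 1 to 0 under those 6, under DESeq2 (Ucn 3.73, adjusted p = 0.308) and with the block (Ucn 3.04). The bias-adjusted fit lost Ucn there (adjusted p = 0.101), and its count of 1 was Hsd11b1. The interaction went from 1 to 0 under those 6 and with the block (Ucn 7.64), and to 2 with DESeq2 size factors. In the hippocampus the interaction went from 1 to 0 under those 6, under DESeq2 (Ucn -4.16, adjusted p = 1) and with the block (Ucn -4.28). Scaling by library size only and dropping the sex term each took MOR-LPS vs SAL-LPS from 0 to 1 in both regions and hippocampal SAL-LPS vs SAL-SAL from 0 to 1. Leaving out each litter in turn gave 0 to 2 genes for hypothalamic MOR-SAL vs SAL-SAL, 0 to 1 for SAL-LPS vs SAL-SAL and MOR-LPS vs MOR-SAL, and 1 to 2 for the interaction, with 0 throughout for MOR-LPS vs SAL-LPS. In the hippocampus it gave 0 to 1 for SAL-LPS vs SAL-SAL, the interaction and MOR-LPS vs SAL-LPS, and in the PFC 0 to 1 for the interaction (1 without litter 17). Leaving out each hypothalamic library, chosen after seeing the data, gave 0 to 2 for MOR-SAL vs SAL-SAL, 0 to 1 for SAL-LPS vs SAL-SAL, 0 to 1 for MOR-LPS vs SAL-LPS, and 1 to 2 for the interaction, and the 4 hippocampal libraries with Ucn reads gave 0 to 1 for that region's interaction. Ucn changed sign in the PFC, from 2.84 to -0.38 in males only and to -0.44 without litter 15 for MOR-SAL vs SAL-SAL (range -0.44 to 3.40 over the litters), and from -3.12 to 0.30 without litter 11 for MOR-LPS vs SAL-LPS (range -4.01 to 0.30). No other direction changed among the contrasts with an unadjusted p under 0.05 and the region pairs that differed. Of the single-gene values under all these alternatives, 1277 kept their direction and side of the threshold, 35 crossed it to pass and 65 to miss. DESeq2 gave no adjusted p for Ucn in 3 hypothalamic contrasts with a call. Region levels differed in 18 of 42 pairs as reported and in 14 to 20 under the alternatives, 19 of them with no replicate block, with no change of direction. The cause of these changes was not tested. Depth limits Ucn, Crh, Crhbp and Hsd11b1, where a single read decides presence.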
